A study of Saccharomyces cerevisiae with 6 samples.

Results

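The ADE genes encode the enzymes that build purine nucleotides from small precursors in budding yeast. They were taken as the 10 listed genes ADE1, ADE2, ADE3, ADE4, ADE5,7, ADE6, ADE8, ADE12, ADE13 and ADE17, each read by a probe set annotated to that gene alone. Such a probe set was found for 9 of the 10, out of 5449 Saccharomyces cerevisiae genes tested, and ADE5,7 was not analysed here. None of the 9 had a further probe set, and 0 of the 9 sets were of the kind marked as able to cross-hybridize. All 9 genes lay above background on all 6 arrays, as did 5346 of the 5449 genes tested. The main comparison used no filter on low values.

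The arrays compared 3 biological replicates given HMF (hydroxymethylfurfural) together with furfural in their feed with 3 biological replicates that received neither. Both compounds are aldehydes that arise from sugars when plant material is heated in acid. All 6 were anaerobic chemostat cultures, continuous cultures grown without oxygen, of the strain VTT C-10883, and the treated ones had been switched to the inhibitor medium in a single step. The sources used here do not state the dose, the time after the switch or the dilution rate. Values are given as log2 signals, on which a difference of 1 is a doubling. Each array measures RNA of a whole culture, so a change in every cell and a larger change in some cells cannot be told apart, and the number of arrays limits the precision.

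Purine synthesis starts from phosphoribosyl pyrophosphate (PRPP), on which the ring is built step by step until inosine monophosphate (IMP) is formed, and IMP then branches to AMP and GMP. The transcription factors Bas1 and Pho2 act together to switch the ADE genes on when adenine is scarce. SAICAR, the intermediate made by Ade1 and consumed by Ade13, promotes the association of Bas1 with Pho2. The pathway also draws on folate-bound one-carbon units, which tie it to glycine and serine metabolism.

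With inhibitors, ADE1, ADE8 and ADE13 rose and the other 6 measured ADE genes were not called. ADE1, for SAICAR synthetase, was 1.46-fold higher (95% interval 1.41 to 1.51). ADE8, for glycinamide ribonucleotide transformylase, was 1.21-fold higher (1.16 to 1.26), and ADE13, for adenylosuccinate lyase, was 1.16-fold higher (1.12 to 1.21). Thus 3 of 9 rose and 0 fell at an adjusted p under 0.05 in limma, against 19.9% of all genes tested that rose, 22.3% that fell and 42.2% called in either direction. The median log2 fold change was 0.07 over the 9 genes and -0.01 over all genes tested. The share of members that rose, 33.3%, exceeded the 19.9% over all genes by little more than 1 gene, and is not a result about the ADE genes as a set. At an unadjusted p under 0.05 in limma, 5 of the 9 genes were higher, with ADE2 and ADE3 added, and 0 were lower, against 24.2% and 26.9% of all genes tested.

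**Figure D1:**
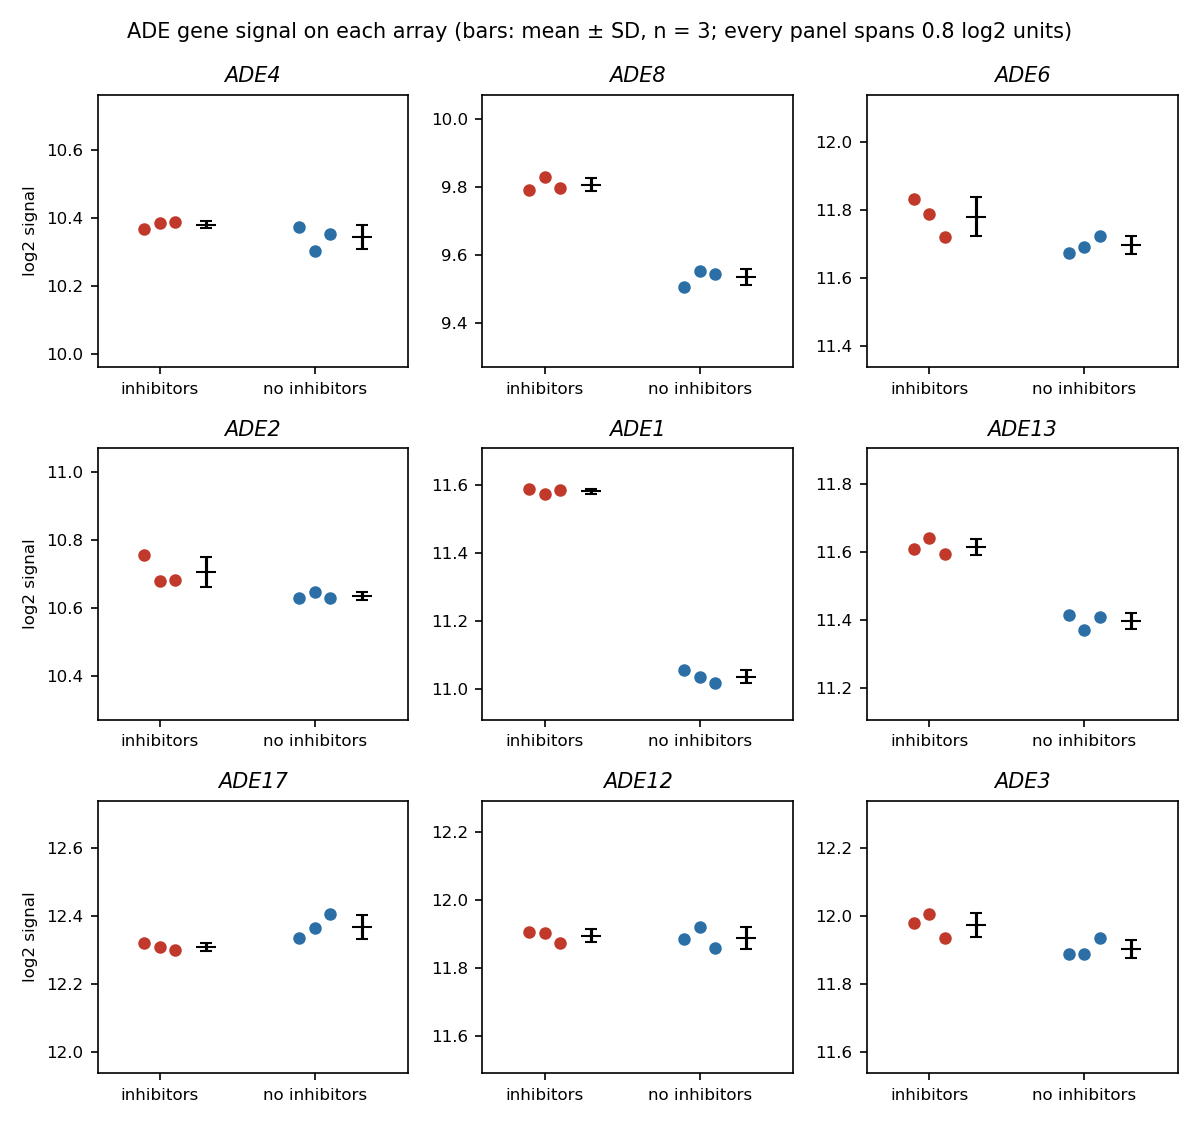
Log2 signal of each measured ADE gene on the 3 inhibitor arrays (red, left) and the 3 no-inhibitor arrays (blue, right), with mean and SD as black bars (n = 3 each) and a span of 0.8 log2 units in every panel. The groups lie well apart for ADE1, ADE8 and ADE13, and close together or overlapping for the others.

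The pathway opens with ADE4, for PRPP amidotransferase, the committing step. Its log2 signal was 10.37, 10.38 and 10.39 with inhibitors, against 10.37, 10.30 and 10.35 without. The groups overlapped by a small margin, and the log2 fold change was 0.04 (SE 0.02, adjusted p = 0.279 in limma).

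ADE8 acts at the third step, where it adds a formyl group carried by folate. Its log2 signal was 9.79, 9.83 and 9.80 with inhibitors, against 9.51, 9.55 and 9.54 without. Every inhibitor array lay above every no-inhibitor array, by at least 0.24. The log2 fold change was 0.27 (SE 0.02, adjusted p = 0.00102 in limma).

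ADE6, for the glutamine-using enzyme of the fourth step, had 11.83, 11.79 and 11.72 with inhibitors, against 11.67, 11.69 and 11.73 without. The lowest inhibitor array fell just under the highest no-inhibitor array. The log2 fold change of 0.08 (SE 0.04) had an adjusted p of 0.11 in limma, and of 0.0457 without inhibitor replicate 3, the lowest of its group.

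ADE2 and ADE1 encode the sixth and the seventh steps, whose loss makes yeast colonies red when an intermediate accumulates. ADE2, for the carboxylase, had 10.76, 10.68 and 10.68 with inhibitors, against 10.63, 10.65 and 10.63 without. The groups did not overlap, but the gap of 0.03 was smaller than the SD of 0.04 among the inhibitor arrays, and the log2 fold change of 0.07 (SE 0.03) was not called (adjusted p = 0.0927 in limma).

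ADE1 had 11.59, 11.57 and 11.58 with inhibitors, against 11.06, 11.03 and 11.02 without. The groups were separated by 0.52, while the SD within them was 0.01 with inhibitors and 0.02 without. The log2 fold change was 0.54 (SE 0.02, 95% interval 0.50 to 0.59, adjusted p = 0.000329 in limma). Its interval began 0.17 above the upper end of the next highest interval among the other 8, that of ADE8, and its change stood at percentile 98.3 of all genes tested.

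ADE13 works at 2 points, on SAICAR at the eighth step and again in the branch to AMP. Its log2 signal was 11.61, 11.64 and 11.59 with inhibitors, against 11.41, 11.37 and 11.41 without. The groups were 0.18 apart. The log2 fold change was 0.22 (SE 0.02, adjusted p = 0.00212 in limma).

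ADE17 encodes an enzyme for the closing steps to IMP, a role it shares with its paralog ADE16. ADE17 had 12.32, 12.31 and 12.30 with inhibitors, against 12.33, 12.36 and 12.40 without. It was the single member with a negative estimate, and every inhibitor array lay below every no-inhibitor array, yet the log2 fold change of -0.06 (SE 0.02) was not called (adjusted p = 0.111 in limma). After quantile normalization between arrays it was called lower, at -0.07 (adjusted p = 0.0446). ADE16 had 9.87, 9.95 and 9.81 with inhibitors, against 9.83, 9.82 and 9.87 without, and its log2 fold change of 0.04 (SE 0.04, adjusted p = 0.461) came with overlapping groups.

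ADE12, for adenylosuccinate synthetase, opens the branch from IMP to AMP. It had 11.91, 11.90 and 11.87 with inhibitors, against 11.89, 11.92 and 11.86 without. The groups were interleaved, and the log2 fold change of 0.01 had a 95% interval of -0.06 to 0.07 (adjusted p = 0.859 in limma).

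ADE3 encodes the cytosolic C1-tetrahydrofolate synthase, which supplies the formyl groups used in the pathway. It had 11.98, 12.00 and 11.93 with inhibitors, against 11.89, 11.89 and 11.93 without. The lowest inhibitor array and the highest no-inhibitor array were almost equal. The log2 fold change of 0.07 (SE 0.03) was not called (adjusted p = 0.0938 in limma), but was called higher after quantile normalization (adjusted p = 0.0332).

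**Figure D2:**
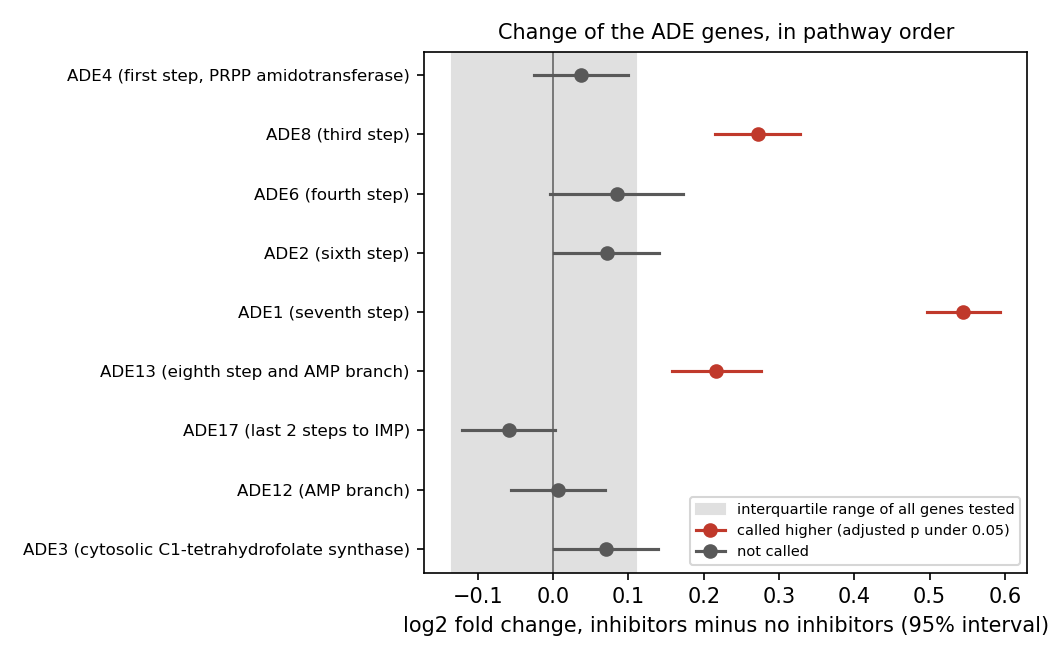
Log2 fold change, inhibitors minus no inhibitors, of the 9 ADE genes from the first step (top) to the AMP branch and folate enzyme (bottom), with 95% intervals from limma (red, called higher; grey, not called) and the interquartile range of all genes tested as a band from -0.13 to 0.11. ADE1, ADE8 and ADE13 lie right of the band, and the 6 others have their estimates inside it.

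Among the genes measured, the changes did not follow the order of the pathway. The genes that rose stand at the third, the seventh and the eighth steps, with ADE6 and ADE2 between them not called. Among the 6 genes not called, the upper ends of the 95% intervals ran from 0.003 for ADE17 to 0.17 for ADE6, below the estimates of the 3 that rose. Of the 9 genes, 5 had all inhibitor arrays above all no-inhibitor arrays, which holds for 26.1% of all genes tested, and 1, ADE17, had them all below, which holds for 29.3%. The gaps between the groups were small for ADE2 (0.03), ADE3 (0.001) and ADE17 (0.01). The mean over the 9 genes was 11.35, 11.35 and 11.32 with inhibitors, against 11.20, 11.20 and 11.21 without, so no single array carried the difference. It came mostly from 3 genes: the mean log2 fold change was 0.34 over the 3 that rose and 0.04 over the 6 not called.

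All 9 genes gave strong signals. Their mean signals stood between percentile 84.6 (ADE8) and percentile 97.6 (ADE17) of all genes tested, and the SD within a group ran from 0.01 to 0.06. ADE12, ADE3 and ADE17 had the highest signals of the 9, at least 11.86 on the log2 scale on every array, and were not called. ADE6, also not called, and ADE13, which rose, lay close to each other in signal. Whether array signal is compressed at this level was not tested.

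**Figure D3:**
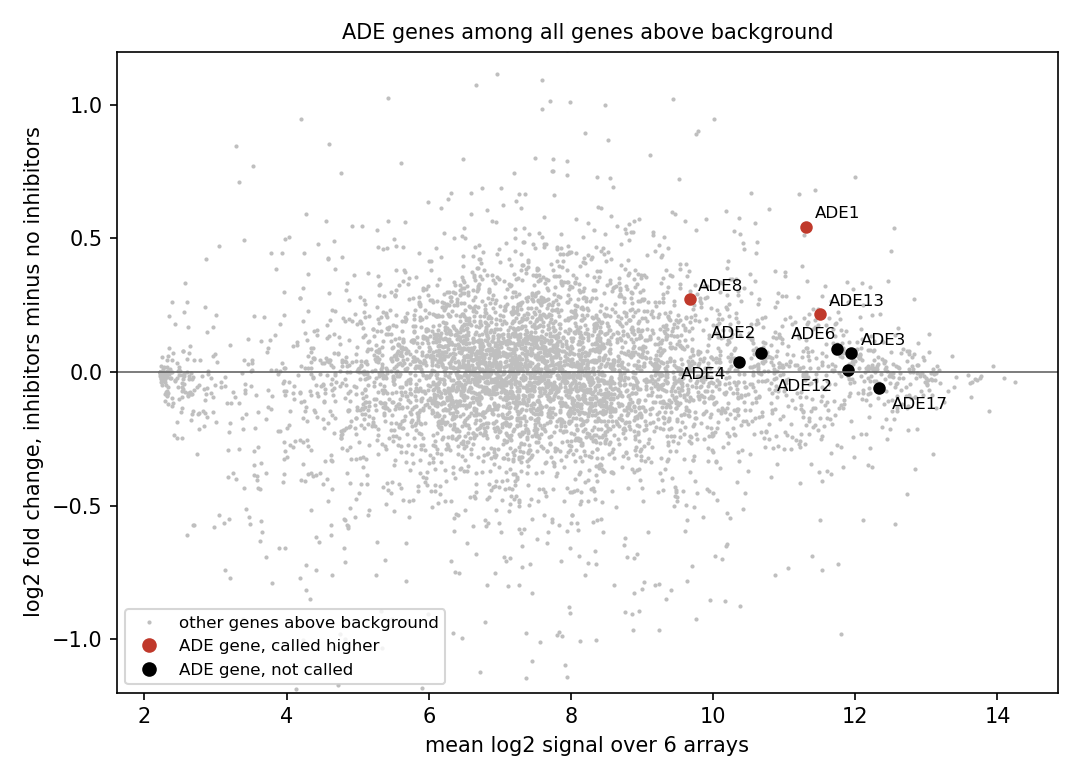
Mean log2 signal over the 6 arrays against log2 fold change, inhibitors minus no inhibitors, for all genes above background (grey) and the ADE genes (red, called higher; black, not called). The ADE genes lie at the high-signal end, and ADE1 has the largest change of the 9; 34 genes lie outside the axis at 1.2.

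Of the regulators, Bas1 and Pho2 turn on the ADE genes and Gcn4 turns on many amino acid and some purine genes. BAS1 had 6.96, 6.99 and 6.99 with inhibitors, against 6.93, 6.97 and 6.95 without, a log2 fold change of 0.03 (adjusted p = 0.339 in limma). PHO2 rose by 0.15 (log2, SE 0.04, adjusted p = 0.0288), a call lost without inhibitor replicate 1 or 3 or no-inhibitor replicate 1 or 2 (adjusted p up to 0.0864 over the alternatives). GCN4 fell by 0.13 (log2, SE 0.03, adjusted p = 0.013). These are transcript levels; the activity of the factors was not measured.

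Outside the ADE genes, 4 of 9 other genes under Bas1 control rose and 0 fell (median log2 fold change 0.09); at an unadjusted p under 0.05 in limma, 5 were higher and 1, HIS1, lower. Over all genes tested, 19.9% rose and 22.3% fell, and at the unadjusted threshold 24.2% were higher and 26.9% lower. The rises among the other genes under Bas1 control were led by the genes of the glycine cleavage complex, which releases one-carbon units from glycine. GCV1 had 10.76, 10.76 and 10.77 with inhibitors, against 10.45, 10.37 and 10.45 without, and rose by 0.34 (SE 0.03, adjusted p = 0.00107 in limma). GCV3 rose by 0.21 (adjusted p = 0.00286), GCV2 by 0.17 (adjusted p = 0.0235) and HIS7, of histidine synthesis, by 0.09 (adjusted p = 0.0141). The GCV2 call was lost without any single inhibitor replicate or without no-inhibitor replicate 1 (adjusted p up to 0.0811 over the alternatives). MTD1, for a folate dehydrogenase, had the largest change among those not called, 0.14 (adjusted p = 0.124). It was called higher with array weights (adjusted p = 0.0389 in limma) and without inhibitor replicate 1 (adjusted p = 0.0159).

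Of 8 further folate and one-carbon genes, 5 rose and 1 fell, against 19.9% and 22.3% of all genes tested, with a median of 0.14. MIS1, the mitochondrial counterpart of ADE3, rose by 0.26 (SE 0.07, adjusted p = 0.0266 in limma), a call lost without any single inhibitor replicate (adjusted p up to 0.0798 over the alternatives). FOL1 and DFR1, both of folate synthesis, rose by 0.26 and 0.21 (adjusted p = 0.00737 and 0.0054). SHM1, the mitochondrial serine hydroxymethyltransferase gene, fell by 0.20 on the log2 scale (adjusted p = 0.0125). FOL3 had the largest change among those not called, -0.05 (adjusted p = 0.566).

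Of the 5 genes for PRPP synthetases, which make the starting compound of the pathway, 3 fell and 0 rose, and 4 and 0 at an unadjusted p under 0.05 in limma (median -0.16). Of all genes tested, 22.3% fell, and 26.9% were lower at the unadjusted threshold. PRS3 had 9.89, 9.86 and 9.88 with inhibitors, against 10.23, 10.22 and 10.16 without, and fell by 0.33 (log2, SE 0.03, adjusted p = 0.000916 in limma). PRS5 fell by 0.16 (adjusted p = 0.00787) and PRS1 by 0.17 (adjusted p = 0.0415). The PRS1 call was lost without any single inhibitor replicate or without no-inhibitor replicate 1 or 3 (adjusted p up to 0.122 over the alternatives). PRS2 was not called, at -0.13 (adjusted p = 0.0656), but was called lower with array weights (adjusted p = 0.0317) and without no-inhibitor replicate 3 (adjusted p = 0.0302).

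The branch to GMP gave calls in both directions, with 2 of 5 genes higher and 2 lower, against 19.9% and 22.3% of all genes tested. GUA1, for GMP synthase, had 10.59, 10.67 and 10.53 with inhibitors, against 10.91, 10.80 and 10.92 without, and fell by 0.28 (log2, SE 0.05, adjusted p = 0.00905 in limma). The IMP dehydrogenase genes IMD2 and IMD4 rose by 0.26 and 0.20 (adjusted p = 0.0243 and 0.039), while IMD3 fell by 0.15 on the log2 scale (adjusted p = 0.0256). Calls of these 3 paralogs were not stable: those of IMD2 and IMD4 were lost when any single array other than inhibitor replicate 1 was left out, and that of IMD3 when any other than inhibitor replicate 2 was (adjusted p up to 0.113 over the alternatives). The IMD2 probe set is of the kind that can cross-hybridize, so its reading may include its paralogs. GUK1, for guanylate kinase, was at 0.06 and was not called (adjusted p = 0.109).

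Salvage, uptake and interconversion of purines was mixed, with 4 of 16 genes higher and 5 lower, against 19.9% and 22.3% of all genes tested (median -0.04). Leaving out 1 array at a time left 2 to 3 of the falls, in each of the 6 cases fewer than 5. The uptake family gene FCY21 had 3.00, 2.88 and 2.88 with inhibitors, against 3.83, 4.08 and 3.63 without, and fell by 0.93 (log2, SE 0.12, adjusted p = 0.00333 in limma). These signals lie near the floor of 2.21. FUN26, for a nucleoside transporter of internal membranes, fell by 0.44 on the log2 scale (adjusted p = 0.00278). APT2, an adenine phosphoribosyltransferase paralog, rose by 0.23 (adjusted p = 0.00461), and HPT1, for hypoxanthine-guanine phosphoribosyltransferase, by 0.21 (adjusted p = 0.00428). AMD1, for AMP deaminase, was not called, at -0.18 (adjusted p = 0.0821), but was called lower with the alternative variance moderation (adjusted p = 0.0483 in limma).

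Histidine synthesis meets the pathway because it releases AICAR, the substrate of Ade16 and Ade17. Of its 4 genes outside the Bas1 list, 0 rose and 1 fell, against 19.9% and 22.3% of all genes tested. HIS3 fell by 0.33 (log2, SE 0.03, adjusted p = 0.00186 in limma). The other 3 were not called, HIS6 having the largest change of these, -0.09 (adjusted p = 0.251). Pho2 also partners Pho4 on phosphate genes. Of 11 listed Pho4 targets, 10 were measured, and whether each also depends on Pho2 was not tested. Of these 10, 2 rose and 6 fell, against 19.9% and 22.3% of all genes tested, with a median of -0.14. PHO84, the phosphate transporter gene, had 3.20, 2.34 and 2.39 with inhibitors, against 4.21, 4.58 and 3.99 without (log2 fold change -1.62, SE 0.28, adjusted p = 0.00838), also near the floor. The acid phosphatase gene PHO5 rose by 0.36 (adjusted p = 0.00204), the vacuolar phosphatase gene PHO8 fell by 0.31 on the log2 scale (adjusted p = 0.00264) and PHO89, for a sodium-phosphate transporter, fell by 0.22 (adjusted p = 0.0227), a call lost without any single no-inhibitor replicate (adjusted p up to 0.0722 over the alternatives). VTC3, of the polyphosphate polymerase complex, was not called, at 0.13 (adjusted p = 0.111).

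**Figure D4:**
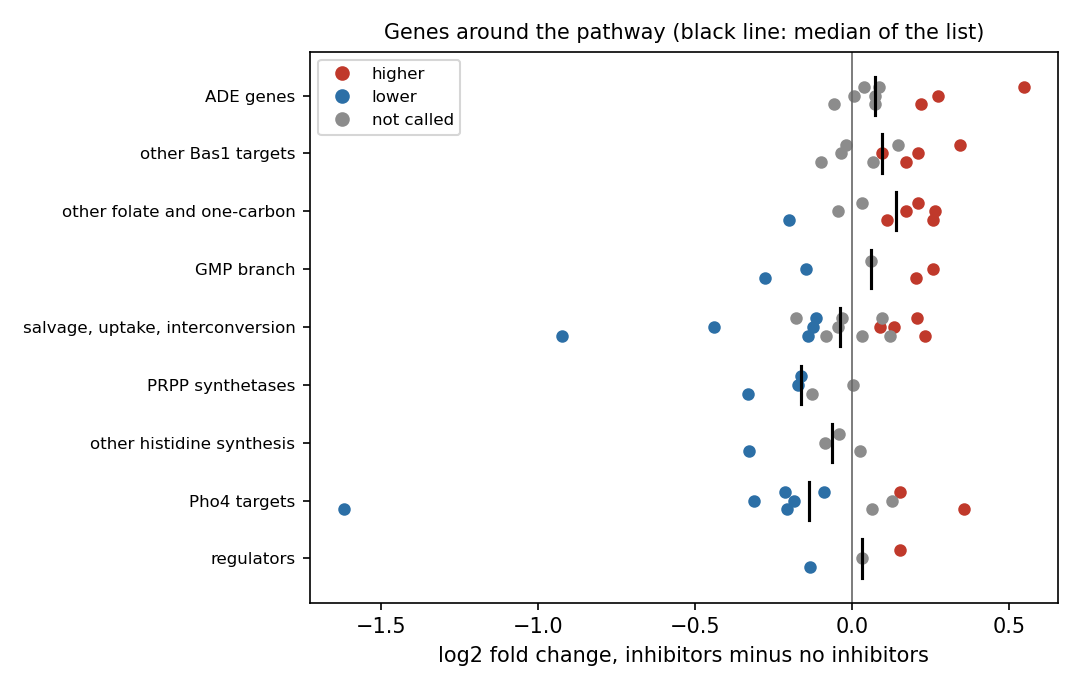
Log2 fold change, inhibitors minus no inhibitors, of the ADE genes and of genes around the pathway, 1 point per gene (red, called higher; blue, called lower; grey, not called) with the list's median as a black line. ADE, other Bas1 target and other folate genes have medians of 0.07, 0.09 and 0.14, and the PRPP synthetase genes one of -0.16.

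The genes whose profile over the 6 arrays came closest to the mean profile of the 9 ADE genes, after centring each on its own mean, were FAR3, MIM2, NUP116, MAG1 and GAS3. Their Euclidean distances to it ran from 0.027 (FAR3) to 0.037 (GAS3), and their log2 fold changes from 0.12 (MAG1) to 0.14 (NUP116). Of the summed log2 fold change of 1.24, ADE1, ADE8 and ADE13 supply 1.03. The mean profile, with a log2 fold change of 0.14, rises less than each of these 3 genes. It rises more than each of the 6 not called, so the likeness is to the mean and not to a single ADE gene. With 2 groups of 3 arrays, this likeness is mostly a rise of about the same size.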

How the data were processed

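Biotin-labelled total RNA was read on Affymetrix arrays, and the deposited values are log2 signals made with GCRMA, per the submitters' processing notes, which also name limma without versions. GCRMA adjusts for background with the probes' sequences and scales the arrays to each other. Nothing was renormalized. Of 10762 probe sets, 5498 had a single S. cerevisiae gene, matched by gene ID to RefSeq names. Another 1746 had a single gene absent from those names and were taken as fission yeast. Background was the 95th percentile of the sets taken as fission yeast on each array, a level just above the floor of 2.21. The set with the highest mean stood for each gene.

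Groups were compared by limma 3.58.1 (R 4.3.3), group as single factor, empirical Bayes, two-sided, Benjamini-Hochberg over 5449 genes, threshold 0.05; the method was tested on simulated data. Across genes, Pearson's r between arrays of a group was 0.998 to 0.999, and between groups 0.989 to 0.994. Alternatives covered normalization, a background filter, variance moderation, array weights, a replicate block, the treatment of probe sets and leaving out each array. Members and gene lists were chosen with earlier results of these data known. All ADE genes and regulators are named, and from other lists up to 4 called genes by size of change and the largest not called. A planned promoter motif count and a protein comparison were not made, as no sequences were used here. Figures were drawn with matplotlib 3.10.9.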

Additional observations from a re-analysis of the deposited data

How the results depend on the processing

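The calls of ADE1, ADE8 and ADE13 held under all 13 alternatives, with log2 fold changes of 0.54 to 0.57, 0.26 to 0.31 and 0.20 to 0.26 and adjusted p up to 0.0118, 0.0144 and 0.0254. The number of ADE genes called higher was 3 to 4 and their median log2 fold change 0.06 to 0.09, both also when 1 array at a time was left out. Quantile normalization called 1 ADE gene lower, ADE17, where the deposited values called 0, and added ADE3 to the rises; the cause was not tested. ADE12, not called, ran from -0.0084 without no-inhibitor replicate 3 (adjusted p = 0.832) to 0.0230 without no-inhibitor replicate 2. Over all genes, 774 to 1252 were called higher and 810 to 1309 lower, the lowest counts with the replicate number as a block and 855 to 1023 and 868 to 1117 when 1 array was left out. Quantile normalization turned the split to 1252 higher and 1125 lower, against 1086 and 1214. Deviations from the group mean correlated at -0.25 to -0.20 between arrays with the same replicate number. Between arrays with different numbers they correlated at 0.05 to 0.18. With 3 arrays per group and no pairing stated in the labels, this cannot decide whether the numbers pair the samples. With the block, 3 ADE genes were called higher and 0 lower. Of the 37 called genes of the other lists, 22 were then not called, among them all of the GMP branch and of the regulators. These include GCN4 (adjusted p = 0.0692 in limma). SHM1 (adjusted p = 0.0617) and HIS7 (adjusted p = 0.0773) were also not called. When 1 array was left out, the rises numbered 0 to 2 in the GMP branch and 0 to 1 among regulators. Among further folate genes they numbered 3 to 4, against 5. Among Pho4 targets 1 to 2 rose and 4 to 6 fell, against 2 and 6, and with the block 1 and 3. Of the other Bas1 targets 3 to 4 rose and 0 to 1 fell, against 4 and 0. With the block 2 of them rose, with array weights 6, and 0 fell in both. Fewer arrays entered each of the fits that left 1 out. Signals near the floor, as for FCY21 and PHO84, limit what can be read from their changes.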
